A study of Mus musculus with 4 samples.

Results

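A set of 10 genes of the Polycomb system, listed by name, was followed in bulk RNA-seq of mouse double-positive (DP) thymocytes, and all 10 were found among the 35976 gene symbols measured. They comprise the PRC2 genes Ezh2, Ezh1, Eed, Suz12 and Jarid2 and the PRC1 genes Rnf2, Ring1, Bmi1, Pcgf1 and Cbx7. Cxxc1 knockout (KO) thymocytes carried the genotype written Cxxc1 F/F :Lck-cre, a floxed Cxxc1 with a Cre transgene under the Lck promoter, which is active in T-lineage cells. Control thymocytes carried Cxxc1 +/+ :Lck-cre, so both groups had the transgene. The cells had been sorted from thymus as positive for CD24, CD4 and CD8a and negative for TCRb, with 2 libraries per genotype. The labels do not state the age or sex of the mice, nor whether each library came from its own mouse. The p-values therefore measure the spread between these libraries, which may be technical. The study compared the genotypes to learn what Cxxc1, a CpG-binding subunit of the SETD1 histone H3 lysine 4 methyltransferases, does in thymocytes.

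Polycomb proteins keep genes silent through histone modification. PRC2 methylates histone H3 at lysine 27, with EZH2 or EZH1 as the enzyme and EED and SUZ12 as the obligate core, and EED also binds the finished mark. PRC1 ubiquitinates histone H2A through RNF2 (RING1B) or RING1 (RING1A), each paired with a PCGF protein, and CBX proteins such as CBX7 bind the PRC2 mark. EZH2 is known to be abundant in dividing cells and EZH1 in resting ones, and in the T lineage PRC2 and BMI1 are known for holding down the cell cycle inhibitor gene Cdkn2a and genes of other lineages.

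Because the Cxxc1 protein binds unmethylated CpG, the sequence just before the transcription start is shown for the PRC2 enzyme pair, whose levels stood in opposite order in the 2 libraries of each genotype, and for Cbx7, whose order was that of Ezh1. Each line gives the 250 bases upstream of the start in the direction of transcription, from RefSeq on GRCm38.p6, with every CG in capitals. Ezh2 lies on the minus strand at chr6:47595031-47595280, Ezh1 on the minus strand at chr11:101226464-101226713 and Cbx7 on the minus strand at chr15:79932647-79932896. A window follows the start of 1 transcript, while the gene positions given below span all RefSeq transcripts of a gene. The start used for Cbx7 lies 38497 bases inside that span and the one for Ezh2 240 bases inside it, since other transcripts begin further upstream, and the Ezh1 start is at the edge of its span.
Ezh2: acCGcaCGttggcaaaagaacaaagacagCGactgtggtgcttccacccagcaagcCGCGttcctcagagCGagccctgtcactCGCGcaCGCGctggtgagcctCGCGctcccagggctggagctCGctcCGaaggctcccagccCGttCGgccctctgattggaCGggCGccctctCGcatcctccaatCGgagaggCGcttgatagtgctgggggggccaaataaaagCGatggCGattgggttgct
Ezh1: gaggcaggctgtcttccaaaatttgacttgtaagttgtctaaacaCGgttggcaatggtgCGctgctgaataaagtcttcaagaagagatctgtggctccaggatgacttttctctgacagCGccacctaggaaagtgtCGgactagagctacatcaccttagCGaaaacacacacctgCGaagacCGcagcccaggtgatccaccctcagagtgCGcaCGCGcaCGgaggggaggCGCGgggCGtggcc
Cbx7: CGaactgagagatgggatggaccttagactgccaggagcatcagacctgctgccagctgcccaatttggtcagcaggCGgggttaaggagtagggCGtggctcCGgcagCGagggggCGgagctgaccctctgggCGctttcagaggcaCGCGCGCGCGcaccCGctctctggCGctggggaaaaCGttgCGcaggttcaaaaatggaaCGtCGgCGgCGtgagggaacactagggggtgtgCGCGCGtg
The Ezh2 window held 23 CG, the Ezh1 window 14 and the Cbx7 window 23. A start was found in RefSeq's promoter table for 9 of the 10 genes, with 10 windows in all since Jarid2 had a pair. The 10 windows held from 12 CG (Eed) to 37 (Suz12), with a median of 22.5, against a median of 6 over 32851 mouse promoter windows of the same length. At least 12 CG were found in 33.5% of all windows, and Suz12 had more CG than 97.8% of them. The E2F site letters TTTCGCGC and TTTGGCGC, searched on both strands, were in 0 of the 10 windows and in 0.654% of all windows. These counts describe letters and say nothing of binding.

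The libraries held 36243182 counts in KO 1, 33544428 in KO 2, 12150508 in control 1 and 34820446 in control 2. Cxxc1 itself was at 35.7 and 39.4 CPM (library-size-normalised counts, with TMM scaling) in KO 1 and KO 2, against 111 and 53.5 CPM in control 1 and control 2. It was lower in each KO library than in either control, but the difference missed the threshold (log2 fold change -1.12 ± 0.34, adjusted p = 0.199, edgeR's quasi-likelihood test). DESeq2 called it (adjusted p = 0.0337), as did edgeR without a filter (adjusted p = 0.00827) and without control replicate 2 (-1.56, adjusted p = 0.00874). Its log2 fold change was -0.51 with control replicate 1 left out (adjusted p = 0.566). Counts per gene do not separate the floxed part from the rest, and the source of the Cxxc1 reads left in the KO was not tested. All 8 DP markers, Cd4, Cd8a and Rag1 among them, were present, with a summed level of 4468 and 6975 CPM in the KO libraries and 10280 and 13600 CPM in the control libraries. Markers of the preceding double-negative stage, 8 genes with Il2ra and Notch1 among them, summed to 3216 and 1602 CPM in KO 1 and KO 2, against 834 and 530.1 CPM in control 1 and control 2. Of the 8 DP markers 0 rose and 3 fell (Cd4, Cd8a and Dntt), and of the 8 double-negative markers 4 rose (Il2ra, Notch3, Dtx1 and Il7r) and 0 fell. Over all tested genes 0.27% were called higher and 0.181% lower. Cd44, picked out once its values were known, was the 1 double-negative marker with a lower point estimate, beside 7 higher. It had 11.65 and 15 CPM in KO 1 and KO 2, against 30.35 and 35.2 CPM in control 1 and control 2. DESeq2 called Cd44 (adjusted p = 0.0139) and edgeR did not (-1.30 ± 0.32, adjusted p = 0.124). Cd4, Cd8a and Dntt were no longer called when KO replicate 1 was left out (edgeR, adjusted p = 0.0858, 0.129 and 0.0858). The same held for Notch3, Dtx1 and Il7r (adjusted p = 0.0858, 0.165 and 0.0858), while that of Il2ra held (adjusted p = 0.0131). With library totals as the only scaling Cd4 and Cd8a also missed the threshold (adjusted p = 0.0509 and 0.0566). Erythroid markers, 6 genes, summed to 38.0 and 26.2 CPM in KO 1 and KO 2, against 8.66 and 14.0 CPM in control 1 and control 2. The globin gene Hba-a1 was the 1 of them that rose, a call lost without KO replicate 1, and 4 globin genes were at 0 in both controls. Hba-a1 passed the filter through the KO libraries alone, so it could only come out higher and its call is a description. Il7r, at 12 and 9 counts in control 1 and control 2, did not pass on the controls alone. It needed the KO libraries, where it was high, so its call is a description too. Summed B cell, myeloid and dendritic, and NK and gamma-delta markers stayed between 1.85 and 54.5 CPM in every library with 0 called, and Klrd1 was at 0 in all 4. Stromal markers summed to 142 and 163 CPM in the KO libraries and 135.5 and 162.9 CPM in the controls, most of it from Pecam1. Within that sum, and picked out once their values were known, the epithelial marker Epcam had 11.6 and 15.1 CPM in the KO libraries and 1.09 and 4.88 CPM in the controls, and the mesenchymal marker Pdgfrb had 26.6 and 11.3 CPM in the KO libraries and 5.80 and 3.98 CPM in the controls. Both were higher in each KO library, at log2 fold changes of 2.11 and 1.97, and were called by DESeq2 (adjusted p = 0.0444 and 0.0143) but not by edgeR (adjusted p = 0.21 and 0.141). The part of these markers in the results below was not tested.

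None of the 10 Polycomb genes was called in KO DP thymocytes, at adjusted p-values between 0.549 and 0.995. Their log2 fold changes lay between -0.33 for Jarid2 and 0.13 for Ring1, with a median of -0.14, beside -0.04 over all 20389 genes tested. All 10 passed the filter on low counts. edgeR called 0.451% of all tested genes, so 0 of 10 is near the background and is no result about these genes. At an unadjusted p below 0.05 the count was also 0 of 10, against 13.9% of tested genes, and DESeq2 called 0 of 10, against 4.64%. Over all genes 92 were called, with 9 without KO replicate 1 and 555 and 619 without control replicate 1 or 2, and in each case 0 of the 10. A threshold that is missed does not show equal levels, so intervals are given. The 95% interval lay within a 2-fold change in either direction for 7 of the 10, and reached past it for Eed, Ring1 and Pcgf1. Counts per gene from bulk cells cannot tell fewer cells of a type from less RNA per cell.

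**Figure D1:**
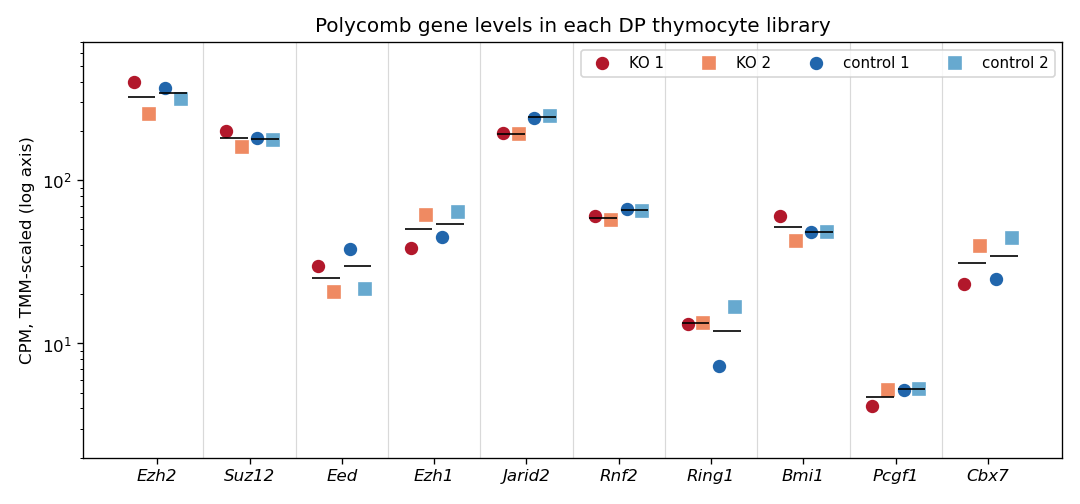
Level of each Polycomb gene in each library, in CPM on a log axis, with points for libraries and short lines for the mean of each genotype (2 libraries each). Both KO libraries lie below both control libraries for Jarid2, Rnf2 and Pcgf1, and the libraries of the genotypes overlap for the other 7 genes.

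Ezh2 (chromosome 6, 47530274 to 47595270 on GRCm38.p6), the main H3K27 methyltransferase gene of dividing cells, was the most abundant of the 10. It had 398 CPM in KO 1 and 254 CPM in KO 2, against 368 CPM in control 1 and 316 CPM in control 2. KO 1 was the highest library and KO 2 the lowest, so the genotypes overlapped. The log2 fold change was -0.07 ± 0.27 (SE, 2 libraries per genotype), with a 95% interval from -0.67 to 0.53 (adjusted p = 0.951).

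Ezh1 (chromosome 11, 101191115 to 101226463), which encodes the alternative enzyme, had 38.5 CPM in KO 1 and 61.4 CPM in KO 2, against 44.7 CPM in control 1 and 64.0 CPM in control 2. Its low libraries were KO 1 and control 1, the libraries in which Ezh2 was high within each genotype. KO over control, this gave a log2 fold change of -0.12 ± 0.31, with an interval from -0.82 to 0.57 (adjusted p = 0.919).

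Suz12 (chromosome 11, 79993106 to 80034123), the core subunit that anchors PRC2 cofactors, had 200.4 and 160.4 CPM in KO 1 and KO 2 and 182 and 177 CPM in control 1 and control 2. The control libraries lay between the KO libraries. The means were 180.4 ± 28.3 and 179.6 ± 3.85 CPM (SD, n = 2 each) in KO and control, a log2 fold change of 0.01 ± 0.22 with an interval from -0.50 to 0.51. Its sign changed with the scaling, at -0.02 with DESeq2's size factors.

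Eed (chromosome 7, 89954654 to 89980976), the subunit that reads the H3K27 mark, had 30.0 and 20.6 CPM in KO 1 and KO 2, against 37.9 and 21.5 CPM in control 1 and control 2. The libraries overlapped, and the gap within each genotype exceeded the gap between the means. The log2 fold change was -0.23 ± 0.36, with an interval from -1.05 to 0.59 (adjusted p = 0.861). Without control replicate 1 it was 0.23.

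Jarid2 (chromosome 13, 44730774 to 44921643), a PRC2 cofactor that helps recruit and stimulate the complex, had the largest point difference of the 10 and the tightest replicates of the PRC2 genes. It had 196 and 191 CPM in KO 1 and KO 2, against 240.2 and 247 CPM in control 1 and control 2. The 2 genotypes did not overlap, and the means were 193 ± 3.25 and 243 ± 4.58 CPM (SD, n = 2 each). The KO level was 0.794 of the control level, a log2 fold change of -0.33 ± 0.21 with an interval from -0.81 to 0.14. The fit takes its spread partly from all genes, and the difference was not called (adjusted p = 0.549). Over 9 alternatives it stayed between -0.36 and -0.30, at an adjusted p of at least 0.418.

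**Figure D2:**
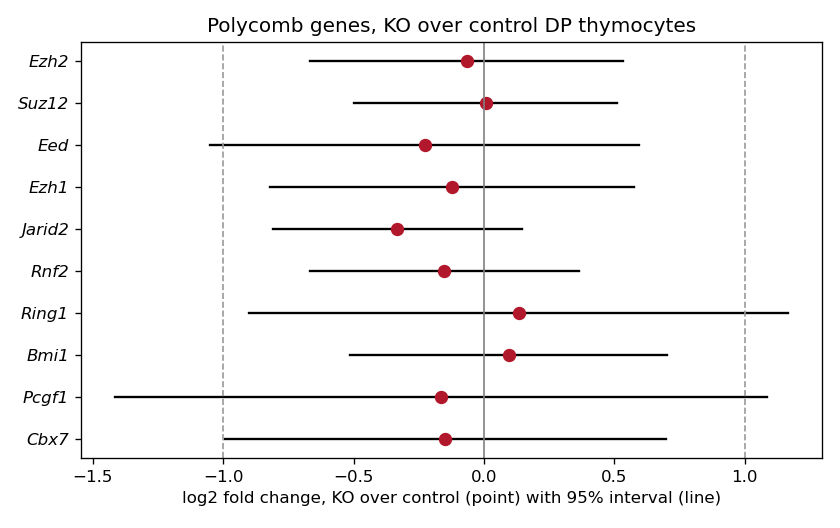
Log2 fold change of each Polycomb gene, KO over control, from edgeR (points) with 95% intervals (lines), and dashed lines at a 2-fold change in either direction. Every interval spans 0, from Jarid2 at -0.33 to Ring1 at 0.13, and the widest is that of Pcgf1, from -1.42 to 1.09.

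Among the PRC1 genes, Rnf2 (chromosome 1, 151469398 to 151500991), the principal H2A ubiquitin ligase gene, had 60.7 and 57.4 CPM in KO 1 and KO 2, against 66.5 and 64.7 CPM in control 1 and control 2. Both KO libraries were lower, by a small amount, at a log2 fold change of -0.15 ± 0.23 with an interval from -0.67 to 0.36 (adjusted p = 0.85). Over 9 alternatives the log2 fold change lay between -0.18 and -0.11.

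Ring1 (chromosome 17, 34020792 to 34024680), the paralogous ligase gene, had 13.2 and 13.3 CPM in KO 1 and KO 2, against 7.23 and 16.8 CPM in control 1 and control 2. The KO libraries were nearly equal and lay between the control libraries. Control 1, the shallowest library, rested on 86 counts, and the others on 459 to 581. The log2 fold change was 0.13 ± 0.46, with an interval from -0.90 to 1.17. Leaving out control replicate 1 gave -0.34, and leaving out control replicate 2 gave 0.88.

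Bmi1 (chromosome 2, 18677018 to 18686629) encodes PCGF4, the PCGF partner in canonical PRC1, and is known as a repressor of Cdkn2a. It had 60.6 and 42.6 CPM in KO 1 and KO 2, against 48.4 and 48.2 CPM in control 1 and control 2. The control libraries were nearly equal and lay between the KO libraries. A near-identical copy, Gm5946, had 3 and 0 counts in the KO libraries and 1 and 1 in the controls, and how reads matching both were counted is unknown. With a log2 fold change of 0.10 ± 0.27, Bmi1 had an interval from -0.51 to 0.70 (adjusted p = 0.93).

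Pcgf1 (chromosome 6, 83077552 to 83080855), the PCGF gene of a variant PRC1 that reaches CpG islands through KDM2B, was the scarcest of the 10. It had 4.16 and 5.17 CPM in KO 1 and KO 2, against 5.21 and 5.25 CPM in control 1 and control 2. The KO libraries lay below the controls, from 145 and 184 counts in the KO and 62 and 182 in the control libraries. KO 2, at 5.17 CPM, was almost level with control 1, at 5.21 CPM from 62 counts. The log2 fold change was -0.17 ± 0.56, with an interval from -1.42 to 1.09 (adjusted p = 0.942).

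Cbx7 (chromosome 15, 79915804 to 79971143), the chromodomain gene of canonical PRC1, had 23.05 and 39.3 CPM in KO 1 and KO 2, against 24.8 and 44.1 CPM in control 1 and control 2. As for Ezh1, KO 1 and control 1 were low and KO 2 and control 2 high. Cbx7 had a log2 fold change of -0.15 ± 0.38, with an interval from -0.99 to 0.70 (adjusted p = 0.92).

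The genotypes did not overlap for 3 of the 10 genes, Jarid2, Rnf2 and Pcgf1, all lower in the KO. Of all tested genes 46.8% did not overlap, with 24% of tested genes lower in the KO and 22.8% higher, so this count too is no result about these genes. In 8 of the 10 genes, all but Jarid2 and Rnf2, the replicates of at least 1 genotype differed by more than the genotype means.

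Per kilobase of exon (GENCODE vM21 exon unions, since no source used here names the annotation behind the counts), the first 5 ranks were the same in both genotypes. Ezh2 came first, at 48.8 ± 15.3 CPM per kilobase in KO and 51.1 ± 5.49 in control libraries (SD, n = 2 each). Suz12 followed at 36.5 ± 5.72 in KO and 36.3 ± 0.778 in control libraries, then Jarid2 at 19.9 ± 0.332 and 25.05 ± 0.474. Ezh2 and Suz12 overlapped between KO libraries and did not between control libraries. Rnf2, at 14.3 ± 0.559 in KO and 15.9 ± 0.311 in control libraries, stood next to Bmi1, at 13.0 ± 3.22 and 12.2 ± 0.0354, and the pair overlapped between KO but not between control libraries. Below them, Ezh1, Eed and Cbx7 overlapped with one another in both genotypes, between 3.55 and 9.91 CPM per kilobase. Ring1 averaged 4.09 ± 0.0396 in KO and 3.70 ± 2.08 in control libraries, and Pcgf1 had the lowest mean, at 2.83 ± 0.433 and 3.17 ± 0.0163. Ring1 and Pcgf1 overlapped between control but not between KO libraries. In control 1 Ring1, at 2.23, was below Pcgf1, at 3.16. Eed thus stood well below its core partners Ezh2 and Suz12 at the RNA level in all 4 libraries.

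Ratios within a library need no scaling between libraries. Ezh2 counts per kilobase exceeded those of Ezh1 by 11.5-fold in KO 1 and 4.61-fold in KO 2, and by 9.15-fold in control 1 and 5.5-fold in control 2. The ratio thus differed more within each genotype than between the genotypes, whose mean log2 ratios of counts were 2.71 ± 0.94 in KO and 2.67 ± 0.52 in control libraries (SD, n = 2 each). Proliferation genes, 22 of them with Mki67 and Top2a, were also higher in KO 1 and control 1 within their genotypes, with a summed level of 6688 CPM in KO 1 and 4462 CPM in KO 2, and of 7222 CPM in control 1 and 5317 CPM in control 2. Of these 22 genes 0 rose and 0 fell, with Mki67 at -0.29 ± 0.26 and Top2a at -0.49 ± 0.27. At an unadjusted p below 0.05 E2f1 was higher and E2f2 lower, beside 6.97% of all tested genes higher and 6.91% lower. DESeq2 called 1 of the 22, E2f2, beside 4.64% of all tested genes, so these counts are near the background. E2f1 and E2f2, which encode cell cycle activators, were picked out once values were known. E2f2 was at 173.5 and 124.4 CPM in the KO and 407 and 240.6 CPM in the control libraries. The part of proliferation in the Ezh2 to Ezh1 ratio was not tested.

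The ratio of Rnf2 to Ring1 per kilobase was 3.62 in KO 1 and 3.38 in KO 2, against 7.23 in control 1 and 3.03 in control 2. Control 1 stood apart, as it did for Ring1. Bmi1 exceeded Pcgf1 by 6.05-fold in KO 1 and 3.42-fold in KO 2, and by 3.85-fold in control 1 and 3.81-fold in control 2. The differences in mean log2 ratio, KO minus control, were 0.04 for Ezh2 over Ezh1, -0.42 for Rnf2 over Ring1 and 0.25 for Bmi1 over Pcgf1. The two-sided exact permutation test over libraries gave p = 1 for each of the 3, before and after adjustment, and with 2 libraries against 2 it cannot go below 0.333.

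**Figure D3:**
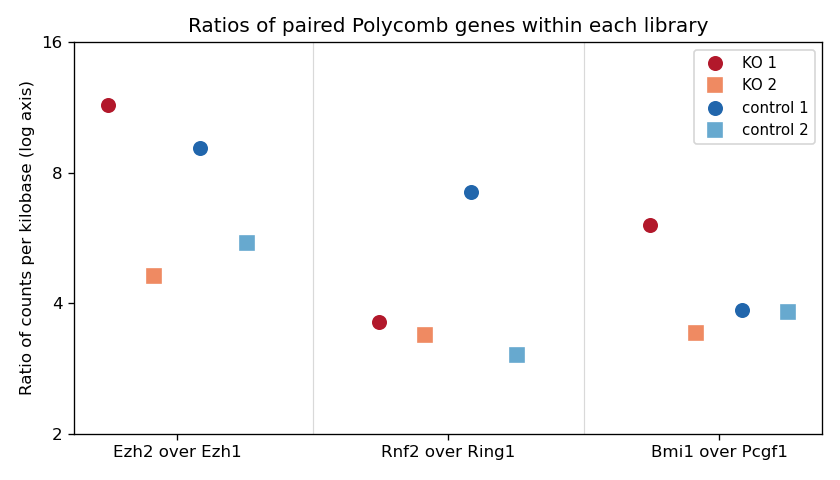
Ratio of counts per kilobase between paired Polycomb genes in each library, on a log axis, with 1 point for each of the 2 KO and 2 control libraries. Ezh2 exceeded Ezh1 by 4.61-fold to 11.5-fold, and KO 1 and control 1 had the higher ratio in their genotypes.

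The rest of the Polycomb system was read from lists of other subunits. Of 47 further genes tested, 1 rose and 0 fell, with a median log2 fold change of 0.00, beside 0.27% of all tested genes called higher and 0.181% called lower. At an unadjusted p below 0.05, 3 were higher (Scml4, E2f6 and Mtf2) and 2 lower (Kdm6b and Phf1), beside 6.97% of all tested genes higher and 6.91% lower, so these counts are near the background. The one that rose was Scml4, a gene related to the Sex comb on midleg family of PRC1-associated proteins (chromosome 10, 42858077 to 42960782). It had 123 and 189 CPM in KO 1 and KO 2, against 33.2 and 48.1 CPM in control 1 and control 2. The KO libraries lay well above the controls, 3.82-fold, or 1.93 ± 0.30 on the log2 scale (adjusted p = 0.0355). The call ended without KO replicate 1, at 2.25 (adjusted p = 0.0653), and without KO replicate 2, at 1.59 (adjusted p = 0.0747), and held under the 7 other alternatives.

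Among 8 other PRC2 genes tested, 0 rose and 0 fell, with a median of 0.01. Rbbp4, which encodes a histone-binding core subunit, had 340 and 241 CPM in KO 1 and KO 2, against 311 and 283 CPM in control 1 and control 2 (-0.03 ± 0.24). Lcor, whose locus also encodes a PRC2 cofactor, had -0.10 ± 0.22. Of the Polycomb-like cofactors that tie PRC2 to CpG islands, picked out once their values were known, Mtf2 had 295 and 250.4 CPM in the KO libraries and 184 and 177 CPM in the controls, and Phf1 had 18.5 and 27.6 CPM in the KO libraries and 39.7 and 39.6 CPM in the controls. The libraries of each did not overlap, higher in the KO for Mtf2 (0.59 ± 0.22, adjusted p = 0.277) and lower for Phf1 (-0.78 ± 0.30, adjusted p = 0.303). Of the 8 genes, 3 did not overlap and were higher in the KO and 1 was lower. Of all tested genes 22.8% did not overlap and were higher and 24% were lower. The third member of that family, Phf19, had 0.00 ± 0.40.

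Of 11 genes tested in the list of other canonical PRC1 genes, the one called was Scml4, and the median was -0.03. Scml4 was in that list through its relation to the Sex comb on midleg family. Phc3, a polyhomeotic subunit gene, had a log2 fold change of 0.01 ± 0.22. Among 15 other variant PRC1 genes, 0 rose and 0 fell, with a median of 0.02. Usp7, a deubiquitinase gene, had 0.02 ± 0.22 and Mga, which encodes the scaffold of the PCGF6 complex, had 0.10 ± 0.25. E2f6, which encodes the E2F repressor in that same complex and was picked out once its values were known, had 55.2 and 30.3 CPM in KO 1 and KO 2, against 15.4 and 18.6 CPM in control 1 and control 2. Both KO libraries were higher (1.33 ± 0.36), but edgeR did not call it (adjusted p = 0.157), and DESeq2 did (adjusted p = 0.0241).

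Enzymes that undo Polycomb marks made up the last list, with the H2A deubiquitinase complex PR-DUB and the H3K27 demethylases. Of 13 tested 0 rose and 0 fell, with a median of -0.02. Kdm6b, the inducible H3K27 demethylase gene (JMJD3), had 348.5 and 326 CPM in KO 1 and KO 2, against 639 and 502 CPM in control 1 and control 2. Both KO libraries were lower, at a log2 fold change of -0.76 ± 0.23, and the difference was not called by edgeR (adjusted p = 0.206) but was by DESeq2 (adjusted p = 0.0267). Its paralog Kdm6a, picked out once its values were known, had -0.36 ± 0.22, and Ogt, a PR-DUB partner gene, had 0.39 ± 0.26.

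**Figure D4:**
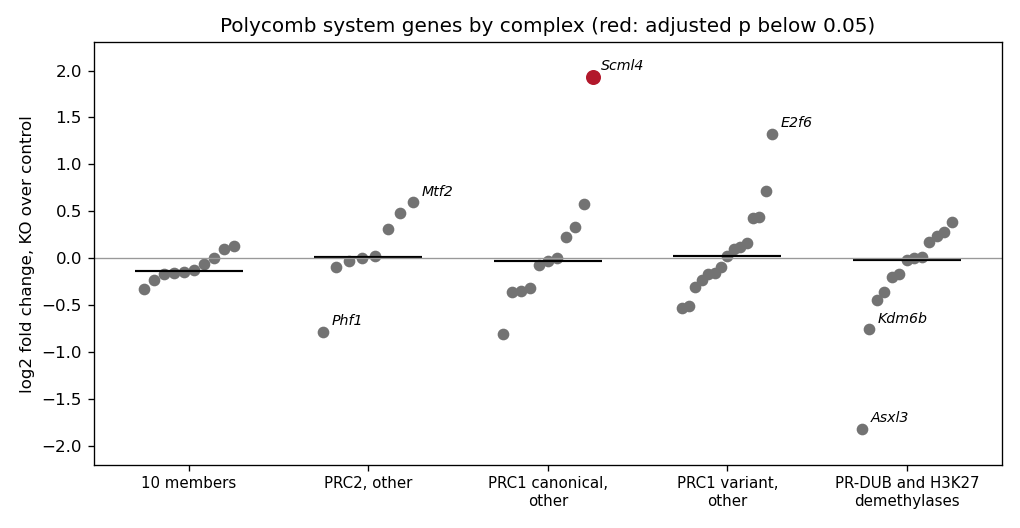
Log2 fold change, KO over control, of each tested gene of the Polycomb system (points) by list, with the list median as a line and called genes in red. Scml4, at 1.93, is the one called gene, and list medians lie between -0.14 for the 10 Polycomb genes and 0.02 for the other variant PRC1 genes.

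Genes that Polycomb complexes keep silent in most tissues were scarce in all 4 libraries. Of 57 such genes, which comprised Hox genes, Cdkn2a, Cdkn2b and regulators of other lineages, 6 were at 0 throughout and 1 passed 5 CPM in any library. Their summed level was 13.7 and 13.8 CPM in KO 1 and KO 2, against 36.5 and 38.5 CPM in control 1 and control 2. Cdkn2a had 0 CPM in 3 libraries and 0.420 CPM in control 1. The filter kept 20 of the 57, of which 0 rose and 0 fell by edgeR, with 4 lower (Hoxa10, Hoxa2, Olig2 and Foxa2) and 0 higher at an unadjusted p below 0.05, beside 6.91% of all tested genes lower and 6.97% higher. DESeq2 called 3, Hoxa10, Hoxa2 and Olig2, beside 4.64% of all tested genes. Those 4 had 0 counts in both KO libraries. The 20 had a median log2 fold change of -1.49, the same with those 4 at their bounds, and a median standard error of 1.84. Those that passed the filter through the control libraries alone had to be lower in the KO. That median, the count at an unadjusted p below 0.05 and the DESeq2 count are therefore descriptions.

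Hoxa7 was the most abundant, at 4.76 and 1.29 CPM in KO 1 and KO 2 and 2.61 and 10.3 CPM in control 1 and control 2. The genotypes overlapped, and the log2 fold change was -1.10 ± 0.83. Hoxa3 had 1.03 and 1.24 CPM in the KO libraries, against 4.37 and 3.23 CPM in the controls (-1.74 ± 0.83, adjusted p = 0.397). Hoxa10 and Hoxa2, picked out once their values were known, had 0 counts in both KO libraries, and 3.11 and 0.346 CPM (Hoxa10) and 1.01 and 1.73 CPM (Hoxa2) in control 1 and control 2. Against a floor of 3 counts per library, Hoxa10 was at least 20.1-fold lower and Hoxa2 at least 15.9-fold lower in the KO, and edgeR called neither (adjusted p = 0.194 and 0.188). The Hoxa10 bound rests on control 1, at least 36.1-fold against that library alone and at least 4.02-fold against control 2 alone. Hoxa10 and Hoxa2 passed the filter through the control libraries alone. A lower KO level was thus fixed in advance, and the bounds are descriptions. Levels this close to the floor carry few counts, and the floor covers counting error only.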

How the data were processed

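Bulk RNA-seq counts of sorted DP thymocytes were used from 2 KO and 2 control libraries, made from 10 ng of total RNA with a SMART-seq kit and grouped by the sample titles. The authors deposited whole-number read counts per gene symbol, not normalised. The file headers name HISAT2, and the submitters' processing notes list, with no role or order, mm10, edgeR 3.36.0, featureCounts 2.0.8, HISAT2 2.2.1 and cutadapt 4.0. No source used here gives the strand setting, and Ezh2, Eed, Suz12, Rnf2 and Cbx7 share 1.54% to 6.82% of their exon bases with a gene on the other strand, whose reads could not be told apart if counting was unstranded. Among GENCODE vM21 transcripts, searched with minimap2 2.31 for matches of at least 300 bases and 90% identity, Bmi1 matched Gm5946 over 2660 bases (97.0%) and Pcgf1 matched Gm8930 over 764 bases (97.5%). Gm5946 itself had 0 to 3 counts in each library, and Gm8930 is not a symbol of the files. The levels of Bmi1 and Pcgf1 are uncertain to that extent. Without molecular identifiers, floors cover counting error only. The 95% intervals take in the spread between libraries as the fit estimates it.

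Counts were tested in R 4.3.3 with edgeR 4.0.16 (filterByExpr, minimum count 10 and minimum total 15, TMM, glmQLFit and glmQLFTest, genotype as the only term), with Benjamini-Hochberg adjustment over 20389 genes and calls below 0.05. Standard errors are the log2 fold change over the square root of F. DESeq2 1.42.0, other scalings, no filter, each library left out and a replicate block were alternatives. The test was checked on simulated data. A floor of 3 counts was 0.0861 CPM in KO 1, 0.0843 in KO 2, 0.252 in control 1 and 0.0865 in control 2. No pair of libraries matched within sampling noise (lowest chi-square divided by its degrees of freedom, 51.9). All 10 genes were named whatever their values, with called genes and the 2 of highest mean CPM in the other lists, and the defining genes of the marker lists. Mtf2, Phf1, Phf19, E2f6, Kdm6a, E2f1, E2f2, Cd44, Epcam, Pdgfrb, Cdkn2a, Hoxa10, Hoxa2, Olig2 and Foxa2 are outside that rule and were picked once their values were known. A gene that the rule names is not reported here. The genes and lists were chosen with earlier results of these data known.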

Additional observations from a re-analysis of the deposited data

How the results depend on the processing

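The count of Polycomb genes called was 0 under all 9 alternatives, and their median log2 fold change lay between -0.16 and -0.04. Over all genes, 92 calls became 947 with DESeq2, 920 without a filter and 1599 with the replicate block, and leaving out 1 library gave 9 (without KO replicate 1) to 619 (without control replicate 2). Calls in the other Polycomb lists, with the target genes counted in, were 1 here, 6 with DESeq2, 2 without a filter and 4 with the replicate block. Of the 6, 3 were the target genes Hoxa10, Hoxa2 and Olig2. The count also changed with some libraries left out. The replicate numbers are not said to mark a shared mouse or day, so the block was not used for the results. Deviations of same-numbered libraries correlated at 0.12 across all tested genes and at 0.291 across genes of at least 5 CPM. Replicate 1 was above replicate 2 in both genotypes for 5 of the 10 Polycomb genes, below it in both for 4, and in opposite order for 1. With the block edgeR also called Cxxc1 (adjusted p = 0.000661), Mtf2 (0.0456), Kdm6b (0.00392), E2f6 (0.000895), E2f1 (0.0109), E2f2 (6.22e-06), Epcam (0.000147), Pdgfrb (0.000496) and Rag1 (0.00512). Without a filter edgeR called E2f2 (adjusted p = 0.00295), E2f6 (0.00463), Epcam (0.00606) and Pdgfrb (0.00162). With control replicate 2 left out E2f2 (log2 fold change -1.45), Epcam (3.60) and the target gene Hoxa10 were called, and with control replicate 1 left out Pdgfrb was (2.25). That Hoxa10 call sets control 1 alone against 0 counts in both KO libraries.

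Signs that changed did so among differences that were not called. Suz12 and Phc3 were both -0.018 with DESeq2 and with its size factors, Usp7 was -0.001 with both, and Suz12 was -0.003 with the replicate block. Phf19 was -0.023 with DESeq2, -0.022 with its size factors and -0.008 with the replicate block. With 1 library left out, the log2 fold change ranged from -0.50 to 0.21 for Ezh1, -0.39 to 0.23 for Ezh2, -0.58 to 0.23 for Eed, -0.13 to 0.16 for Suz12, -0.34 to 0.88 for Ring1, -0.15 to 0.33 for Bmi1, -0.58 to 0.33 for Cbx7 and -0.33 to 0.02 for Pcgf1. The same ranges were -0.26 to 0.20 for Rbbp4, -0.20 to 0.013 for Lcor, -0.09 to 0.11 for Phc3, -0.049 to 0.13 for Usp7, -0.16 to 0.42 for Mga, -0.40 to 0.41 for Phf19 and -2.29 to 0.22 for Hoxa7. The difference in log2 ratio ranged from -0.62 to 0.70 for Ezh2 over Ezh1, -1.05 to 0.21 for Rnf2 over Ring1 and -0.17 to 0.66 for Bmi1 over Pcgf1. The causes were not tested.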
